A study of Mus musculus with 6 samples.

Results

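The genes described here are 10 receptors, ligands, binding proteins and adaptors of insulin-like growth factor (IGF) and insulin signalling: Igf1r, Insr, Igf2r, Igf1, Igfbp4, Igfbp7, Irs1, Irs2, Shc1 and Grb10. They were chosen by symbol, each matched 1 Ensembl identifier, and together they are 10 of the 39179 genes in the count tables. They were measured by RNA sequencing in 6 libraries of mouse Th17 cells, 3 from cultures with 30 ng/mL desIgf1 and 3 from control cultures without it. Both groups began as naive CD4+ T cells of C57BL/6 mice that carried the IL17a/hCD2, Ifng/Thy1.1 and Foxp3/GFP reporters. Culture lasted 5 days in both, with 20 ng/mL IL-6 and 2.5 ng/mL TGF-β as the polarizing cytokines, blocking antibodies to IFN-γ and IL-4 at 10 µg/mL each, and 5 µg/mL soluble anti-CD3 presented by irradiated splenocytes from which CD4+ cells had been removed. The cells taken for RNA were positive for the IL17a reporter and negative for the 2 other reporters. The treatment text lists desIgf1 for all 6 libraries, whereas titles, descriptions and the series design separate the groups, and the groups follow these. The labels give neither the age nor the number of the mice. In both groups library 1 had abundant Xist (77767 and 88639 counts) and almost no Ddx3y (3 and 2 counts), and libraries 2 and 3 the reverse, so that library 1 came from other mice than libraries 2 and 3. Whether libraries 2 and 3 came from separate mice is not stated, and the spread behind the p-values may be technical in part. The design asks which genes of this pathway differ when the IGF1 receptor is offered its ligand.

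IGF1 acts through IGF1R, a receptor tyrosine kinase closely related to the insulin receptor INSR, with which it also forms hybrid receptors. The activated receptors recruit the adaptors IRS1, IRS2 and SHC1, which pass the signal to the PI3K, AKT and RAS pathways, while GRB10 binds the activated receptors and dampens them. IGF2R carries mannose 6-phosphate tagged enzymes to lysosomes and clears IGF2 without a kinase of its own. IGF-binding proteins hold the ligands outside the cell, and desIgf1 is a form of IGF1 with a shortened amino terminus that escapes most of this binding while still activating the receptor.

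Gene counts summed to 34567899 to 47929948 per library. All 8 T cell and Th17 markers (among them Cd3e, Cd4 and Il17a) were at a mean of at least 1 CPM (counts per 1000000, with library sizes scaled by TMM factors), with a summed level of 4600 to 5317 CPM with desIgf1 and 4107 to 4366 CPM in controls. Cd3e and Cd4 overlapped between the groups, whereas Il17a (125 to 159 CPM with desIgf1, 66.0 to 109 CPM in controls) and Il17f (942 to 1135 and 568 to 845 CPM) were higher in every desIgf1 library. The CD8 and NK cell list summed to 7.46, 12.1 and 13.1 CPM in desIgf1 libraries 1 to 3 and 5.15, 8.02 and 9.82 CPM in controls, higher with desIgf1 within each number. Most of it was Cd8b1 (3.22 to 10.9 CPM), with Cd8a at most at 0.103 CPM and Ncr1 at 0. The part of these differences in the results on the 10 genes was not tested. Markers of B cells summed to at most 3.32 CPM, of dendritic cells to at most 3.31 CPM and of neutrophils to at most 0.716 CPM. The macrophage and monocyte list summed to 9.14 to 13.9 CPM with desIgf1 and 4.07 to 11.6 CPM in controls, with 2 of its 6 genes (Lyz2 and Cd68) over a mean of 1 CPM and C1qb at 0. Replicate numbers 1 to 3 in the titles occur in both groups. Libraries of one number deviated together from their group means across the 13846 genes tested. The correlation was 0.59, 0.32 and 0.55 for numbers 1, 2 and 3, weakest for number 2. Fits with the number as a block are therefore given for several of the genes.

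The promoters of the receptor Igf1r and of the substrates Irs1 and Irs2 are shown because these 3 genes had the smallest p-values among those described. Each line gives the 250 bases before the RefSeq start on GRCm38.p6, on the strand of the gene. RefSeq starts differ from the GENCODE gene coordinates given further below. The Igf1r window ends at 67952256, and the GENCODE gene begins at 67952827. For Irs2, on the minus strand, the window begins at 11008930, and the GENCODE gene ends at 11008458. Capitals mark every GC box (GGGCGG on either strand, the letters bound by SP-family factors) and every E box (CACGTG, a palindrome bound by basic helix-loop-helix factors).
Igf1r, chr7:67952007-67952256, plus strand: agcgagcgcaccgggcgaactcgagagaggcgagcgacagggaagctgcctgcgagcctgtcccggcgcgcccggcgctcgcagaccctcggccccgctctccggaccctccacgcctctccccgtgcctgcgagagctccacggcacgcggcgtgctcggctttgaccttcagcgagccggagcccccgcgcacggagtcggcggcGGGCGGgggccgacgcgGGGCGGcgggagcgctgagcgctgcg
Irs1, chr1:82291440-82291689, minus strand: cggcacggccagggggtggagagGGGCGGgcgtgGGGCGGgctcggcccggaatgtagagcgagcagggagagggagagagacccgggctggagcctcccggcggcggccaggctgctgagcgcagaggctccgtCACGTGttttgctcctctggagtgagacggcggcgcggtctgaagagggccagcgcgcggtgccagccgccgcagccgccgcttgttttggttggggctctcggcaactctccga
Irs2, chr8:11008930-11009179, minus strand: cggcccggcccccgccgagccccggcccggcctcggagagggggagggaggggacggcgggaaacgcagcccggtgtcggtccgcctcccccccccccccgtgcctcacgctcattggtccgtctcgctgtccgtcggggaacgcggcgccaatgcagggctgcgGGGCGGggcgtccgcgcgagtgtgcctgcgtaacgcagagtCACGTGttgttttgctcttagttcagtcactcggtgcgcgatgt
All 3 windows are rich in G and C, at 77.6% for Igf1r, 72.4% for Irs1 and 72.8% for Irs2, against a median of 52.4% over 32851 RefSeq promoters of the same length. The Igf1r window holds 42 CpG dinucleotides, against a median of 6. It holds 2 GC boxes and no E box, the Irs1 window 2 GC boxes and 1 E box, and the Irs2 window 1 of each. The E box ends 109 bases before the RefSeq start of Irs1 and 38 bases before that of Irs2. Of all promoters, 32.7% hold a GC box and 6.02% an E box. The RefSeq table has promoters for 9 of the 10 genes, and Insr is the other. A GC box stands before 7 of them and an E box before 3, the third being Igf2r with 2. A gene counts here if any of its promoters matches, whereas the shares above count each promoter. RefSeq lists 11 promoters for these 9 genes, as Shc1 and Grb10 each have another, without a GC box. The FOXO motif GTAAACA, searched on both strands, is in 3.17% of all promoters and in none of the 9. A match is a description of the letters and not a measured site.

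Per kilobase of exon, the binding proteins led, the receptors were intermediate and 3 genes were close to absent. RPKM, CPM divided by the length in kilobases of all annotated exons of the gene, is used where genes are compared with each other. In controls the order was Igfbp4 (227 ± 123 RPKM, SD, n = 3), Igfbp7 (48.0 ± 24.4), Shc1 (17.1 ± 0.708), Igf2r (12.1 ± 3.37), Igf1r (8.41 ± 1.30), Insr (4.35 ± 0.304), Irs2 (2.50 ± 0.339), Irs1 (0.0528 ± 0.0269), Grb10 (0.0241 ± 0.00937) and Igf1 (0.00148 ± 0.00256). With desIgf1 the 10 genes stood in the same order. The libraries of Igf2r and Igf1r overlapped in controls, from 9.34 to 15.8 RPKM and from 7.26 to 9.82 RPKM, and did not with desIgf1. For Igf1r and Insr it was the reverse, with 4.50 to 6.46 RPKM for Igf1r and 3.56 to 5.01 RPKM for Insr with desIgf1. Irs1 and Grb10 overlapped in both groups. No other neighbours in the order overlapped within a group, apart from Grb10 and Igf1 with desIgf1.

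**Figure D1:**
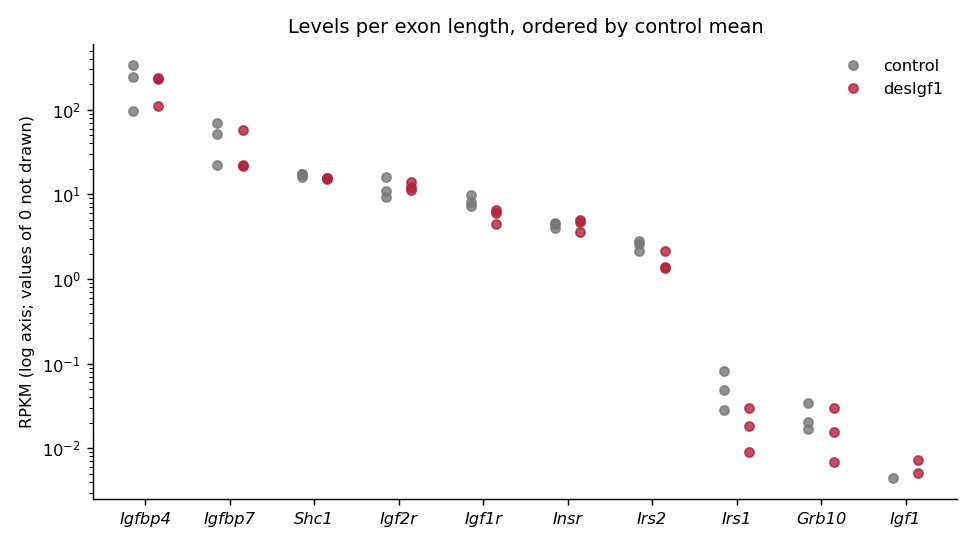
Level per exon length (RPKM, logarithmic axis) of the 10 genes in each control library (grey) and each desIgf1 library (red), ordered by the control mean, with values of 0 (Igf1 only) not drawn. Levels run from 227 RPKM for Igfbp4 to 0.00148 RPKM for Igf1 in the control means.

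In the comparison of the groups, Igf1r, Irs1, Irs2, Shc1 and Igfbp7 had lower values in the desIgf1 library of all 3 same-numbered pairs. Insr and Igf2r did not differ in a common direction. None of the 10 genes passed the test across all genes. edgeR's quasi-likelihood test called 0 of 13846 genes at an adjusted p of 0.05 (0% called), and 1130 genes (8.16%) had an unadjusted p under 0.05. limma voom also called 0 genes, DESeq2 called 202 genes (1.46%), and edgeR with the number as a block called 44 (0.318%). None of the genes described here was among those. The filter on low counts kept 8 of the 10, leaving out Grb10 and Igf1. Irs1 passed it with 4 libraries over the limit of 0.234 CPM, 3 of them controls, so that its lower level with desIgf1 is partly tied to having passed. Of the 8 tested, 3 had an unadjusted p under 0.05 and all 3 were lower (Igf1r, Irs1 and Irs2), where 3.42% of all genes were lower at that limit. In 2 of the 8 (Igf1r and Shc1) all desIgf1 libraries lay below all controls, which 6.18% of all genes did. Lower in all 3 same-numbered pairs were 5 of the 8, as were 17.2% of all genes. Irs1 is among the 3 and among the 5, so both counts are partly tied to the filter and do not show an excess. Apart from Irs1, the 3 are Igf1r and Irs2, and the 5 are Igf1r, Irs2, Shc1 and Igfbp7.

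Igf1r, the receptor through which desIgf1 acts, lies on chromosome 7 (67952827 to 68233668, plus strand, GRCm38). Its level was 165, 137 and 122 CPM in control libraries 1 to 3, and 108, 102 and 75.6 CPM in the desIgf1 libraries of the same numbers. All 3 desIgf1 libraries were below the lowest control, and in both groups library 3 was the lowest. The fitted log2 fold change was -0.57 ± 0.17 (SE), a 1.48-fold lower level with a 95% interval of -0.96 to -0.18, and missed the threshold (edgeR adjusted p = 0.483, unadjusted 0.0108). The differences within numbers 1, 2 and 3 were -0.60, -0.43 and -0.69 on the log2 CPM scale. With the block the change was -0.57 ± 0.09 (edgeR adjusted p = 0.0838), and DESeq2 gave an adjusted p of 0.117. The blocked fit called Igf1r without the libraries numbered 2 (edgeR adjusted p = 0.000841) or 3 (0.0306), but not without those numbered 1 (0.496). Those fits of 4 libraries called 4.42%, 7.64% and 0.513% of all genes tested, in that order, against 0.318% with all 6. They leave fewer residual degrees of freedom than the blocked fit of all 6, so their calls carry little weight. A lower level per library can come from fewer cells with the transcript or from less transcript per cell, and these cannot be told apart here.

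Insr, the insulin receptor on chromosome 8 (3122061 to 3279617, minus strand), was at 62.0, 54.9 and 62.3 CPM in controls and at 64.5, 68.9 and 48.9 CPM with desIgf1. The groups overlapped, and the desIgf1 libraries included both the highest and the lowest value. Its log2 fold change was 0.02 ± 0.15, with a 95% interval of -0.32 to 0.36 (edgeR adjusted p = 0.972). The interval does not reach the value of -0.57 fitted for Igf1r, but it overlaps the 95% interval of Igf1r, -0.96 to -0.18.

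Because a ratio within a library does not depend on scaling, Igf1r was also set against Insr. The ratio of Igf1r to Insr in RPKM was 2.18, 2.04 and 1.60 in controls 1 to 3 and 1.38, 1.21 and 1.27 in desIgf1 libraries 1 to 3. Every desIgf1 library was below every control, with means of 1.94 ± 0.301 and 1.28 ± 0.0862 (SD, n = 3). The difference was -0.59 on the log2 scale (two-sided exact permutation p = 0.1, the smallest that 3 libraries against 3 allow). Within numbers 1, 2 and 3 it was -0.66, -0.76 and -0.34, and without 1 library at a time it ran from -0.72 to -0.50. Igf1r transcripts thus exceeded Insr transcripts per exon length in all 6 libraries. The ratio is of transcripts and says nothing of receptor protein.

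**Figure D2:**
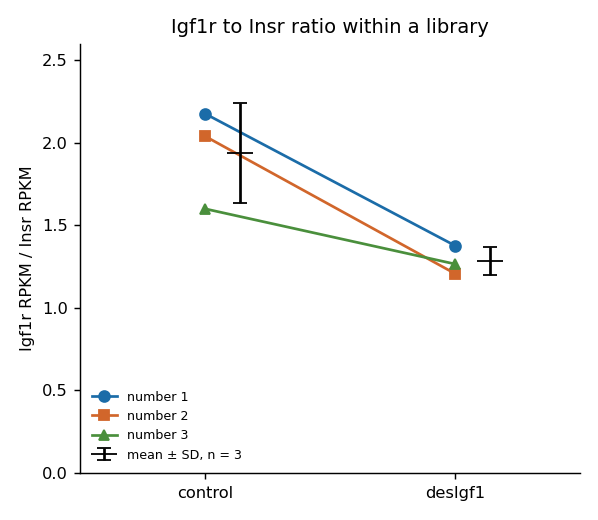
Ratio of Igf1r to Insr (RPKM over RPKM) in each library, with lines joining the control and desIgf1 library of the same number and black bars for mean ± SD (n = 3). The desIgf1 libraries lie between 1.21 and 1.38, below the lowest control at 1.60.

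Igf2r, the cation-independent mannose 6-phosphate receptor on chromosome 17 (12682406 to 12769664, minus strand), was at 103, 86.9 and 147 CPM in controls and at 104, 115 and 130 CPM with desIgf1. Library 3 was the highest in both groups, and the groups overlapped throughout. The log2 fold change was 0.05 ± 0.20, with a 95% interval of -0.41 to 0.51 (edgeR adjusted p = 0.952). Airn, a noncoding RNA transcribed from the opposite strand across the Igf2r promoter and known for silencing the paternal Igf2r allele, was at 0.821 to 2.69 CPM in controls and 1.21 to 1.65 CPM with desIgf1 (edgeR adjusted p = 0.854). It too was highest in library 3 of both groups. The kit keeps strand, and the deposited count tables are named as reverse-strand counts, a setting under which reads of these opposite-strand genes are counted apart.

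The insulin receptor substrates were unequal in level, with Irs2 far above Irs1 in every library. Irs2, on chromosome 8 (10984681 to 11008458, minus strand), encodes the substrate that couples the receptors to PI3K in many tissues. It was at 16.3, 17.7 and 13.5 CPM in controls and at 8.66, 13.6 and 8.43 CPM with desIgf1. The groups met only at desIgf1 library 2, which lay just above control library 3. The log2 fold change was -0.63 ± 0.23, with a 95% interval of -1.16 to -0.10 (edgeR adjusted p = 0.550, and 0.170 with the block). Its differences within numbers 1, 2 and 3 were -0.91, -0.38 and -0.67.

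Irs1, the related substrate on chromosome 1 (82233101 to 82291416, minus strand), had 34, 19 and 9 counts in controls and 11, 7 and 4 counts with desIgf1, or 62 against 22 counts per group. Those are 0.745, 0.446 and 0.258 CPM in controls and 0.275, 0.166 and 0.0827 CPM with desIgf1. Within each number the desIgf1 library was lower, by 1.30, 1.21 and 1.23 on the log2 scale, while desIgf1 library 1 lay above control library 3. The fitted log2 fold change was -1.49 ± 0.58, with a 95% interval of -2.85 to -0.13 (edgeR adjusted p = 0.584, and 0.20 with the block). At so few counts the size of the change is poorly fixed.

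The ratio of Irs2 to Irs1 per exon length was 31.6, 57.5 and 75.7 in controls and 45.5, 118 and 148 with desIgf1. The desIgf1 library had the higher ratio within each number, but the groups overlapped (difference 0.84 on the log2 scale, two-sided exact permutation p = 0.3, where 0.1 is the smallest possible). In both groups the ratio was lowest in library 1 and highest in library 3.

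Shc1, an adaptor that leads from activated receptors to RAS, lies on chromosome 3 (89418443 to 89430027, plus strand) and varied least of the 10 genes. It was at 91.8, 99.2 and 98.0 CPM in controls and at 86.4, 87.1 and 88.6 CPM with desIgf1. The groups did not overlap, but the difference was small, with a log2 fold change of -0.14 ± 0.09 and a 95% interval of -0.35 to 0.06 (edgeR adjusted p = 0.664). Grb10, the inhibitory adaptor on chromosome 11 (11930508 to 12038683, minus strand), had 3 to 11 counts per library. It was at 0.153, 0.188 and 0.315 CPM in controls and at 0.275, 0.142 and 0.0620 CPM with desIgf1, and was too low to test. Control library 3 was the highest and desIgf1 library 3 the lowest, so the groups overlapped and the 3 numbers differed in direction.

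**Figure D3:**
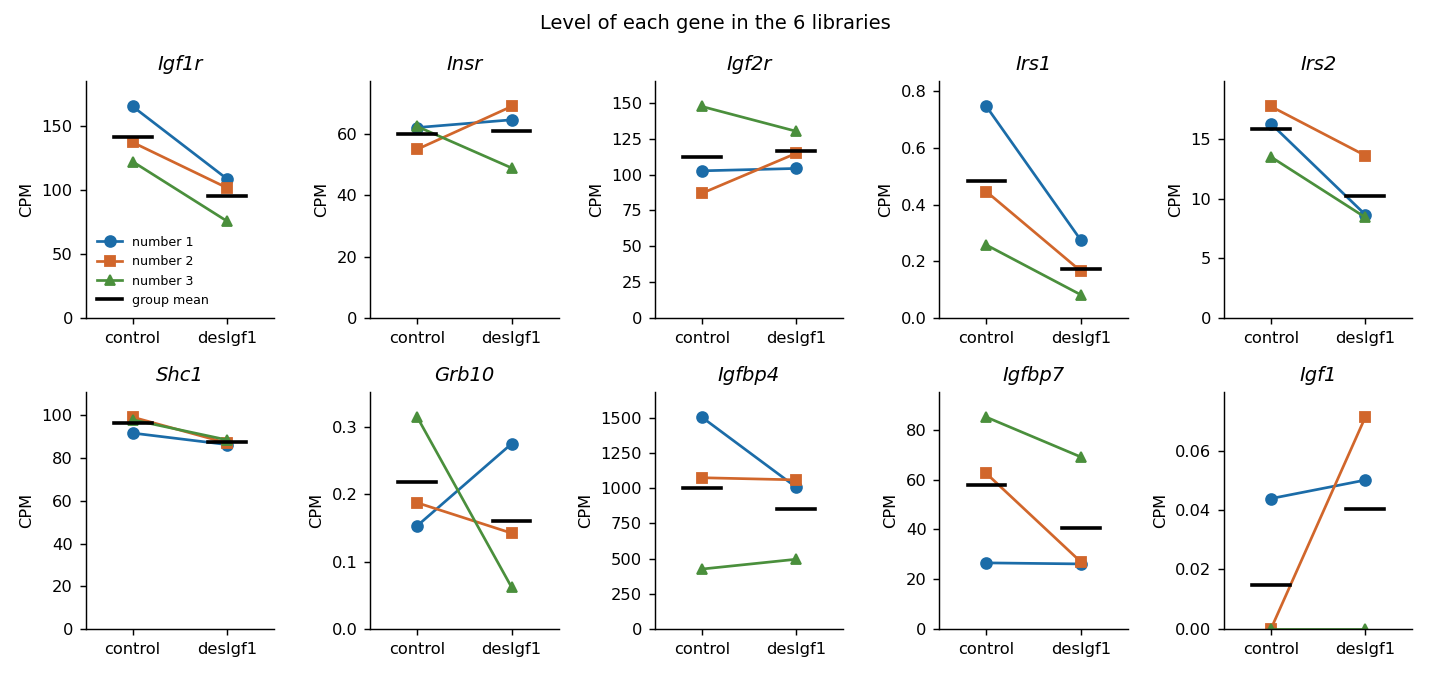
Level (CPM, linear axis from 0, a separate scale per gene) of each gene in the control and desIgf1 library of each number, joined by lines, with black bars for the group means. The lines of Igf1r, Irs1, Irs2, Shc1 and Igfbp7 all fall. Those of Insr, Igf2r and Igfbp4 go in different directions, and number 3 stands apart for Igfbp4.

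Per exon length the binding proteins were the most abundant of these genes, and they differed more between replicate numbers than between groups. In CPM, Igfbp7 (mean 49.4) was below Igf1r (118), Igf2r (114), Shc1 (91.8) and Insr (60.3). Igfbp4, a secreted protein that keeps IGFs from the receptor, lies on chromosome 11 (99041244 to 99054392, plus strand). It was at 1505, 1074 and 425 CPM in controls and at 1007, 1059 and 495 CPM with desIgf1. Library 3 was below the others of its group in both, and the groups overlapped. Its log2 fold change was -0.23 ± 0.47, with a 95% interval of -1.35 to 0.89 (edgeR adjusted p = 0.905). With the block the error was smaller, at -0.13 ± 0.16 (edgeR adjusted p = 0.749).

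Igfbp7, a secreted relative with low affinity for IGFs, lies on chromosome 5 (77349240 to 77408041, minus strand). It was at 26.5, 62.4 and 85.1 CPM in controls and at 26.1, 27.0 and 69.1 CPM with desIgf1. Library 3 was the highest in both groups, and the groups overlapped. The log2 fold change was -0.51 ± 0.52, with a 95% interval of -1.74 to 0.72 (edgeR adjusted p = 0.792) and differences of -0.02, -1.21 and -0.30 within numbers 1, 2 and 3. The value depended on single libraries, at -1.15 without desIgf1 library 3 and -0.13 without control library 3. With the block the error was smaller, at -0.51 ± 0.23 (edgeR adjusted p = 0.389). Igfbp7 is also made by stromal and endothelial cells. Of that marker list, 2 of 7 genes were over a mean of 1 CPM, Pecam1 and Col1a1. Its summed level was 234 to 253 CPM with desIgf1 and 153 to 274 CPM in controls, nearly all of it Pecam1, which T cells also express. The defining markers Cdh5 (at most 0.141 CPM), Kdr (at most 0.143 CPM) and Col3a1 (0 in all libraries) were at or near 0.

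Whether the replicate number itself shifted these genes was asked with a test of the number in the blocked fit, added after the values had been seen. That test called 190 of 13846 genes (1.37%) and none of the 8 tested here. Igfbp4 was nearest (edgeR adjusted p = 0.0622, unadjusted 0.00116), followed by Igfbp7 (edgeR adjusted p = 0.113) and Igf1r (edgeR adjusted p = 0.184). Igf1r, Irs1, Irs2 and Igfbp4 were lowest in library 3 in both groups, and Igf2r and Igfbp7 highest.

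**Figure D4:**
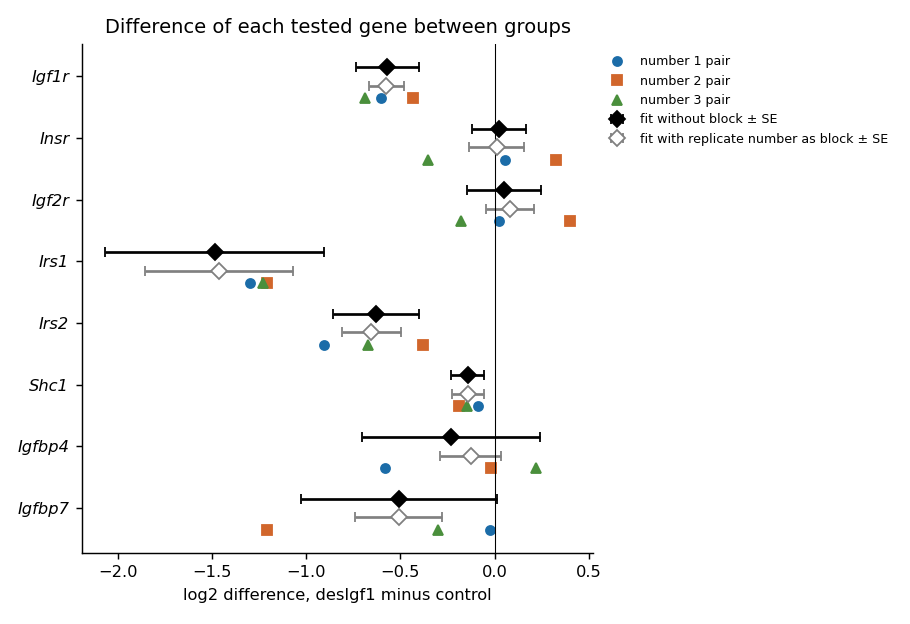
Log2 difference (desIgf1 minus control) of the 8 tested genes, as the fit without the block (black) and with it (grey), each ± SE, and as the log2 CPM difference within each number (coloured points). For Igf1r the points run from -0.69 to -0.43 and for Igfbp4 from -0.58 to 0.22.

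Transcripts of the ligands were almost absent. Igf1, on chromosome 10 (87858265 to 87937042, plus strand), had 2, 0 and 0 counts in controls and 2, 3 and 0 counts with desIgf1. No fold was computed from 2 and 5 counts per group. In the libraries with 0 counts, a level of up to 0.0859 CPM is allowed by 3 counts, a limit that covers counting error only. Added desIgf1 is a protein and leaves no reads. Igf2 had 0 to 8 counts per library, and the insulin genes Ins1 and Ins2 had 0 in all 6.

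Beyond the 10 genes, 56 genes next to the receptors were listed by role, and 37 of them passed the filter. None passed in edgeR with or without the block, and 20 had a positive and 17 a negative log2 fold change. Their median was 0.01, and that of all 13846 genes was -0.01. The listed ligands were too low to test. Of 12 binding proteins and their proteases or inhibitors, only Stc2 and Ide were tested, and Igfbp1, Igfbp3 and Pappa had no counts, so Igfbp4 and Igfbp7 were the only IGF-binding proteins at 1 CPM or more among the 8 examined (Igfals included).

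Among 22 further adaptors, 16 were tested. Cblb, an E3 ubiquitin ligase that restrains T cell activation, had the smallest p. It was at 243, 230 and 305 CPM in controls and at 430, 556 and 332 CPM with desIgf1, with no overlap. Its log2 fold change was 0.76 ± 0.20 (edgeR adjusted p = 0.406, and 0.227 with the block), and it was 1 of the 202 genes called by DESeq2 (adjusted p = 0.0362). Its pairs differed in size, by 0.82, 1.27 and 0.12 in numbers 1, 2 and 3. Cblb was also called with the block and without number 3 (log2 1.05, edgeR adjusted p = 0.00364).

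Of 14 phosphatases and negative regulators, all 14 were tested and none passed. Socs2, a feedback inhibitor of cytokine and growth factor receptors, was at 129, 196 and 50.4 CPM in controls and at 81.5, 51.2 and 45.3 CPM with desIgf1 (log2 -1.08 ± 0.47, edgeR adjusted p = 0.609). The groups overlapped, and number 2 gave most of the difference (-1.94 on the log2 scale). With the block and all 6 libraries the change was -0.91 ± 0.33 (edgeR adjusted p = 0.307). With the block and without number 2 the change was -0.41, and without number 3 it was -1.30 and called (edgeR adjusted p = 0.0125). Ptpn2, a tyrosine phosphatase of insulin and cytokine receptors, had a log2 fold change of 0.25 ± 0.13 (edgeR adjusted p = 0.630). Of the 5 receptor relatives and partners, Furin, the protease that cleaves the receptor precursors, was at 518, 548 and 745 CPM in controls and 655, 740 and 955 CPM with desIgf1. It was higher within each number, by 0.34, 0.43 and 0.36 on the log2 scale. Furin missed the threshold (edgeR adjusted p = 0.630, and 0.160 with the block). It was called with the block and without number 2 (log2 0.35, edgeR adjusted p = 0.0390). Rack1, a scaffold that binds IGF1R, had a log2 fold change of 0.05 ± 0.10 (edgeR adjusted p = 0.887). Stc2, an inhibitor of a protease of IGF-binding proteins, was at 0.61 ± 0.62, and Ide, the insulin-degrading enzyme, at -0.08 ± 0.10 on the same scale (edgeR adjusted p = 0.788 and 0.822). Stc2 was at 0.19 without control library 3, 1.38 without control library 2 and 0.83 with the block, and was called with the block and without number 2 (log2 1.19, edgeR adjusted p = 0.00275).

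The genes whose levels followed Igf1r most closely over the 6 libraries were found by the root mean square difference of log2 CPM after centring each gene on its mean, among 8996 genes at a mean of at least 10 CPM. The 5 nearest were Col11a2 (0.0993), Atrnl1 (0.10), Hipk2 (0.105), Thada (0.117) and Dgka (0.124), where the median over all those genes was 0.383. The difference between groups entered this measure, so these genes are lower with desIgf1 by construction. Hipk2 encodes a nuclear protein kinase and Dgka the diacylglycerol kinase that limits signalling downstream of the T cell receptor. They lie on chromosomes 17, 19, 6, 17 and 10, none on the chromosome of Igf1r. The description rests on 6 libraries that share groups and numbers.

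**Figure D5:**
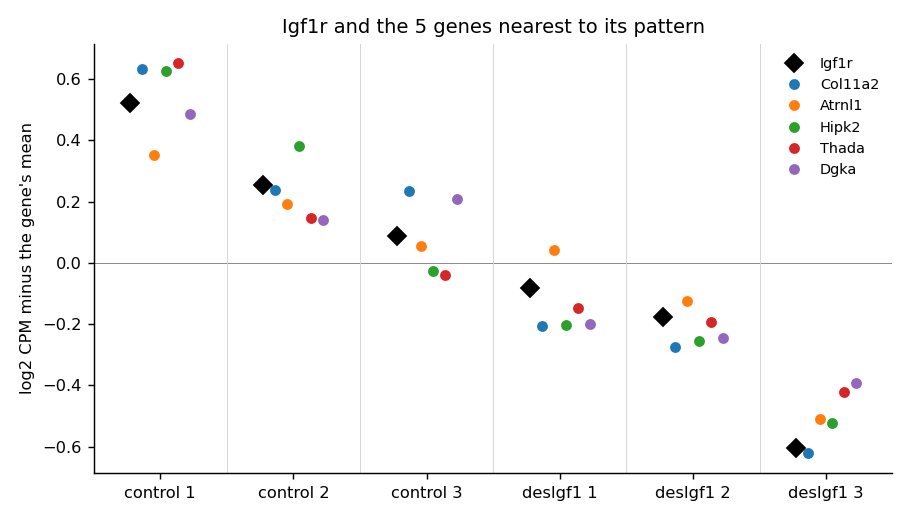
Log2 CPM minus the mean of the gene over the 6 libraries, for Igf1r (black diamonds) and the 5 genes nearest to it (coloured points), with the controls on the left and the desIgf1 libraries on the right. Igf1r is above its mean in the 3 controls and below it in the 3 desIgf1 libraries, and control library 1 is the highest for all 6 genes.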

How the data were processed

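RNA was measured in 6 libraries of sorted mouse Th17 cells, made with a stranded mRNA kit per the labels' protocols. The authors deposited raw counts for each Ensembl gene, without normalization. The submitters' processing notes name HTSeq 0.7.2, STAR 2.5.3, Trim Galore 0.4.5, DESeq2 1.18.1, SAMtools 0.1.18 and R 3.4.3, and the build GRCm38, without roles or settings. The annotation release is not given in the sources used here. HTSeq's summary lines stayed out of library sizes. Of the uniquely placed reads, 13.5 to 15.7% were assigned to no annotated feature and 0.712 to 0.761% fell in more than 1 gene. Symbols, coordinates and exon lengths came from GENCODE M21 (GRCm38), which matched 37693 identifiers, and promoters from RefSeq (GRCm38.p6).

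Genes were tested with edgeR 4.0.16 (TMM scaling, the filterByExpr filter at 10 counts, a robust quasi-likelihood test with group as its single term), with Benjamini-Hochberg adjustment over 13846 genes. The standard error is the log2 fold change divided by the square root of F, and 95% intervals use the test's degrees of freedom. Differences within numbers use log2 CPM with a prior count of 2. Ratios were compared with exact permutation tests. limma 3.58.1 (voom) and DESeq2 1.42.0, in R 4.3.3, other scaling, other filters and fits without each library were tried.

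Same-numbered libraries deviated together from their group means (correlation across genes 0.59, 0.32 and 0.55 for numbers 1, 2 and 3), and Xist was abundant in both number 1 libraries and near 0 in the other 4. The pairing is thus from the data, not from a label, and the blocked fit has 2 residual degrees of freedom. Blocked fits without 1 number have fewer, so calls of any gene in them carry little weight. The 10 genes, the lists and the tests were chosen with earlier results of these data known. The rule for named genes took all 10, 2 genes per role of the pathway list with the smallest p at a mean of at least 1 CPM, Airn, and the 5 genes most like Igf1r at 10 CPM or more. A gene that the rule took among the adaptors is not reported here.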

Additional observations from a re-analysis of the deposited data

How the results depend on the processing

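With the replicate number as a block edgeR called 44 genes and without a filter on low counts 16, DESeq2 called 202, and edgeR without the block 0. With the block and without both libraries of number 1, 2 or 3 it called 72, 620 and 1069. None of the 10 genes was called in any fit of all 6 libraries or with 1 library left out. With the block and without number 1, 2 or 3, the count of the 10 genes called was 0, 2 and 1. Those were Igf1r without number 2 (log2 -0.65, edgeR adjusted p = 0.000841) and without number 3 (-0.52, 0.0306) and Irs2 without number 2 (-0.79, 0.0201). Without number 1, Igf1r had an edgeR adjusted p of 0.496. Of the pathway list DESeq2 called 1 gene, and the blocked fits without 1 number 0 to 3. Over all alternatives Igf1r ran from -0.67 to -0.44, Irs2 from -0.89 to -0.52 and Irs1 from -1.96 to -1.02. Both ratios kept their sign without each library in turn. With the block they were -0.59 for Igf1r to Insr and 0.84 for Irs2 to Irs1 (exact sign-flip permutation p = 0.25, the smallest for 3 pairs). In this balanced design the block cannot change the mean difference. Using the longest transcript for the length cannot change it either, as the length cancels between groups.

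Without 1 library at a time the log2 change of Insr ran from -0.0826 to 0.132, of Igf2r from -0.103 to 0.297, of Igfbp4 from -0.595 to 0.187, of Airn from -0.647 to 0.167 and of Rack1 from -0.00687 to 0.107, each changing sign. With the block and without number 1 the sign also changed for Insr (-0.0125) and Igfbp4 (0.0988). Without number 2 it changed for Insr (-0.145), Igf2r (-0.0777) and Ide (0.0255), and without number 3 for Airn (0.0676). The cause was not tested. Depth limits Irs1, Grb10 and Igf1, which had at most 34 counts in a library.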
